A study of Homo sapiens with 24 samples.

Results

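The hnRNP genes encode abundant nuclear proteins that coat nascent RNA, and 10 of them are described here: HNRNPA1, HNRNPA2B1, HNRNPC, HNRNPD, HNRNPDL, HNRNPH1, HNRNPK, HNRNPL, HNRNPU and PTBP1. They were chosen by name from the 19834 protein-coding genes of the annotation used here. Together they held 2843 of the 1823643 splicing values listed per sample. The measurements came from HCT116, an established human colorectal carcinoma cell line, made to express PHF5A in its wild-type (WT) form or with the Y36C substitution. PHF5A is a subunit of SF3b, the part of the U2 snRNP that recognizes the branch site of an intron, and E7107 is a pladienolide derivative that acts on SF3b. Both cell lines were treated for 6 h with DMSO, the solvent control, or with E7107, and polyadenylated RNA was sequenced from 6 samples of each of the 4 groups. The PHF5A forms were expressed on top of the gene that HCT116 carries, each genotype is 1 engineered line, so genotype and line cannot be told apart, and the labels do not state the E7107 concentration. The methods describe 6 replicate treatments per condition and do not say whether they were made on independent cultures, so p-values measure the spread between these samples, which may be technical.

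Most proteins of this family bind pre-mRNA through RRM or KH domains and influence which splice sites are used, often by keeping the spliceosome away from an exon. Many also control their own messages: a retained intron, a skipped exon or an added "poison" exon can bring a premature stop codon, and such RNA is commonly held in the nucleus or degraded. Their genes are therefore both regulators of splicing and sensitive substrates of it.

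The unit throughout is the percent spliced in (PSI). At each splice site, the reads that cross the exon-intron boundary unspliced and the reads of every junction that uses the site share 100%. A boundary PSI of 10% thus means that 10% of the reads at that site were unspliced. Read counts were not used here, so the depth behind a PSI is unknown and no counting interval is given. The number of splice sites with reads had a median of 337968.5 in WT cells without and 282785.5 with E7107, against 336782 and 330507 in Y36C cells, and the 6 WT E7107 samples stood below all others. Sites of the epithelial genes were present, with 5 of 9 listed epithelial or colorectal markers having a site read in all 24 samples, against 1 of 6 markers of other cell types (COL1A1). A PSI is a share of the RNA present: in such bulk RNA, fewer cells of a type and less RNA per cell cannot be told apart, and neither can slower splicing and slower loss of the unspliced RNA.

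Intron retention was first summarized per gene as the mean boundary PSI over the introns of 1 reference transcript. The 10 reference transcripts have 111 introns and 222 boundaries, of which 43 lie inside an exon of another annotated transcript. Treatment with E7107 raised the value of all 10 hnRNP genes in WT cells. Among all 9747 genes tested, 72.9% were called higher and 8.13% lower in the same comparison (limma on log odds, adjusted p of 0.05 or less), so that a call in WT was the common outcome. The median log-odds change was 1.43 for the hnRNP genes and 1.05 for all genes. Another 17 genes of the family, taken from a list of relatives such as RBMX, TARDBP and SYNCRIP, were called higher in WT as well.

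In Y36C cells the same treatment raised the value of 6 hnRNP genes, HNRNPA1, HNRNPC, HNRNPK, HNRNPL, HNRNPU and PTBP1, and lowered that of HNRNPDL. HNRNPA2B1, HNRNPD and HNRNPH1 did not pass the test. Over all genes 51.3% were called higher and 1.06% lower, and 8 of the 17 relatives were called higher and none lower. The median log-odds change of the hnRNP genes was 0.14, beside 0.26 for all genes. The difference between the responses of the genotypes, tested as an interaction, was called for 9 of 10 hnRNP genes, each with a lower change in Y36C than in WT, and not for HNRNPC. Over all genes 61.1% had a smaller and 14.1% a larger change in Y36C. Under E7107 the same 9 genes were lower in Y36C than in WT, beside 65.3% of all genes that were lower and 16.0% that were higher. In DMSO no hnRNP gene differed between the genotypes by limma, none even at an unadjusted p under 0.05, and the smallest adjusted p was 0.324. In that comparison 0.616% of all genes were called higher and 0.646% lower.

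**Figure D1:**
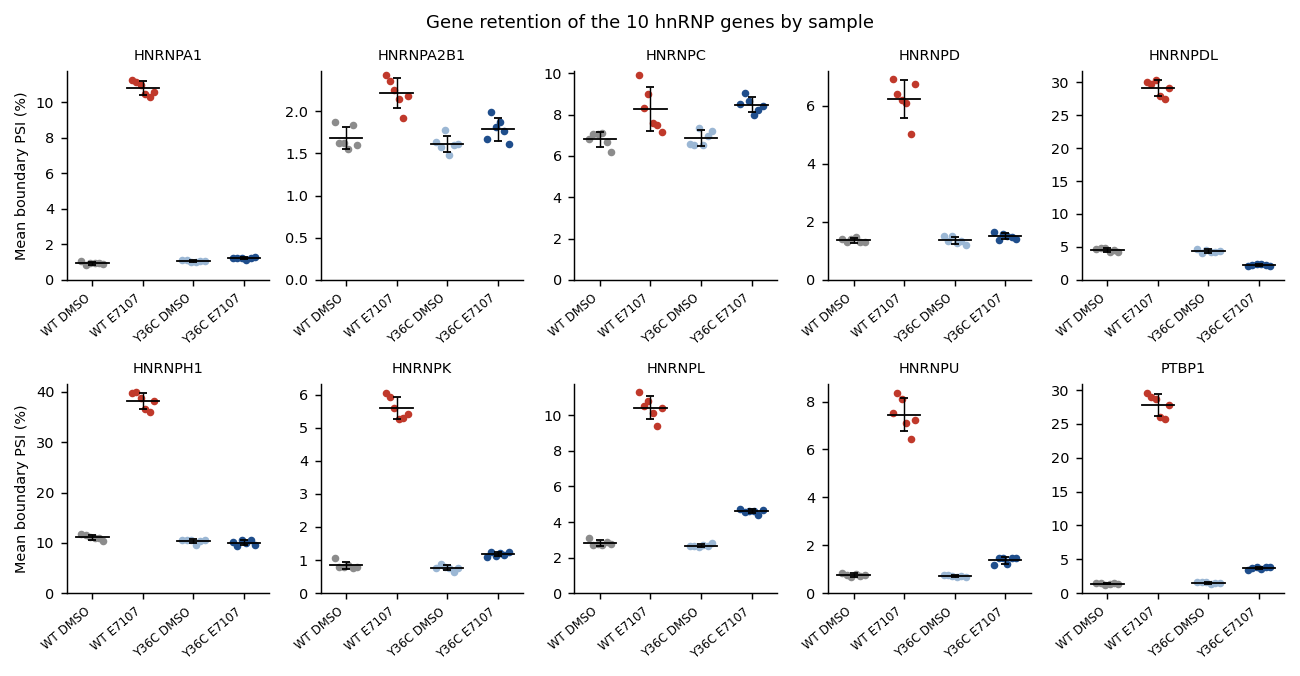
Mean boundary PSI (%) of each hnRNP gene, with 1 point per sample, for WT and Y36C cells in DMSO and E7107, with the mean (bar) and SD of each group of 6. The WT E7107 samples lie above all other samples except in HNRNPA2B1 and HNRNPC, and in HNRNPC the 4 groups lie between 6.17 and 9.95%.

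PTBP1, a repressor that binds pyrimidine tracts and silences exons, had the largest log-odds rise of the 10 genes in both genotypes. Its retention was 1.26 to 1.56% in WT DMSO (median 1.43%) and 25.7 to 29.5% in WT E7107 (median 28.3%). In Y36C cells it was 1.36 to 1.69% in DMSO (median 1.57%) and 3.48 to 3.92% in E7107 (median 3.75%). The treated samples lay above the controls without overlap in both genotypes, and the Y36C samples in E7107 stayed far below the WT ones. The rise was 2.79 ± 0.05 log-odds units in WT (SE, limma adjusted p = 3.82e-14) and 0.64 ± 0.04 in Y36C (adjusted p = 4.84e-08). Ranked by this change, PTBP1 stood at percentile 86.7 of all genes in WT and 87.7 in Y36C, so its place among genes was much alike in both.

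HNRNPDL and HNRNPH1 behaved otherwise. HNRNPDL is a relative of HNRNPD that binds AU-rich RNA. Its retention was 4.20 to 4.88% in WT DMSO (median 4.57%) and 27.5 to 30.4% in WT E7107 (median 29.4%). In Y36C cells it was 4.04 to 4.72% in DMSO (median 4.34%) and 2.08 to 2.42% in E7107 (median 2.20%). It therefore rose in WT and fell in Y36C, with no overlap in either. The Y36C fall of 0.53 ± 0.04 log-odds units (adjusted p = 1.99e-07) put HNRNPDL at percentile 0.677 of all genes, and the interaction was -2.52 ± 0.05 (adjusted p = 1.03e-21). With boundaries inside other annotated exons left out, a choice made after seeing the data, the Y36C fall was from 1.71% to 1.24%, a change of -0.19 log-odds units (adjusted p = 0.00266). HNRNPH1, which binds runs of G, had the highest retention of the 10 genes in DMSO. It measured 10.3 to 11.8% in WT DMSO (median 11.04%), 35.97 to 40.05% in WT E7107 (median 38.4%), 9.58 to 10.7% in Y36C DMSO (median 10.5%) and 9.37 to 10.7% in Y36C E7107 (median 10.1%). Treated and control samples separated in WT and overlapped in Y36C, where the change was -0.03 ± 0.04 (adjusted p = 0.461).

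The remaining genes had smaller shifts in percent. HNRNPA1, which counteracts SR proteins and favours exon skipping, rose from 0.929% ± 0.0665 to 10.8% ± 0.388 in WT (SD, n = 6) and moved from 1.06% ± 0.0391 to 1.22% ± 0.0687 in Y36C, where the call was narrow (adjusted p = 0.0447) and was lost under 15 alternative settings or left-out samples. HNRNPU, a scaffold protein of chromatin-associated RNA, rose from 0.758% ± 0.0684 to 7.46% ± 0.698 in WT and from 0.715% ± 0.0403 to 1.37% ± 0.135 in Y36C. HNRNPK, the KH-domain protein that binds C-rich RNA, rose from 0.841% ± 0.105 to 5.59% ± 0.334 and from 0.767% ± 0.081 to 1.18% ± 0.0687. These 3 genes shared a low baseline near 1%, a WT rise of several points and a Y36C rise of under 1 point. HNRNPD (AUF1), which binds AU-rich elements of unstable messages, rose from 1.36% ± 0.0798 to 6.23% ± 0.669 in WT. Its Y36C change missed the threshold (1.19 to 1.53% in DMSO and 1.36 to 1.66% in E7107, adjusted p = 0.196) and passed it with the median over boundaries (adjusted p = 0.00627) and with boundaries inside other annotated exons left out (adjusted p = 0.00617). HNRNPL, a reader of CA repeats, rose from 2.82% ± 0.152 to 10.4% ± 0.657 in WT and from 2.68% ± 0.0764 to 4.605% ± 0.113 in Y36C. With boundaries inside other annotated exons left out, which removes both ends of its intron 7, the Y36C values were 1.33% and 1.56%, a change of 0.10 log-odds units in place of 0.44 (adjusted p = 0.0458), and the interaction was -1.40 in place of -0.74.

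HNRNPA2B1 and HNRNPC had the smallest log-odds changes of the 10 genes in WT. HNRNPA2B1, which binds and sorts RNAs for transport, went from 1.68% ± 0.133 to 2.21% ± 0.179 in WT (adjusted p = 0.00186) and from 1.61% ± 0.097 to 1.79% ± 0.136 in Y36C (adjusted p = 0.134). Its interaction (-0.12 ± 0.05, adjusted p = 0.0368) was lost under 14 alternative settings or left-out samples, and was -0.31 (adjusted p = 2.05e-05) with boundaries inside other annotated exons left out, where its WT change was 0.40 in place of 0.19. HNRNPC, whose tetramers bind U tracts and package nascent RNA, rose by similar amounts in both genotypes, from 6.82% ± 0.359 to 8.26% ± 1.06 in WT (adjusted p = 0.0147) and from 6.86% ± 0.378 to 8.48% ± 0.367 in Y36C (adjusted p = 0.000443). That value rested on few boundaries with high PSI. With boundaries inside other annotated exons left out, HNRNPC rose from 0.218% to 1.81% in WT, its Y36C change was 0.01 log-odds units (adjusted p = 0.756), and its interaction was -0.84, so the similarity of the genotypes in HNRNPC depends on which boundaries are averaged.

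Single introns were compared next. Of the 222 reference boundaries 206 passed the filter of a mean PSI of at least 1% in the WT comparison, where 189 were called higher and 6 lower, beside 51.0% and 4.12% of all reference boundaries. In Y36C 117 passed the filter, 51 were higher and 11 lower, beside 15.3% and 0.471%. Between the genotypes under E7107, 189 of 209 tested boundaries were lower in Y36C and 7 higher, beside 46.3% and 8.31%. A boundary near 0 in DMSO could pass only through its E7107 samples, so these counts describe the genes and are no test of them. The introns with both ends called lower were HNRNPA2B1 intron 11, HNRNPC intron 2 and HNRNPDL intron 7 in WT, and HNRNPDL introns 1 and 7 and HNRNPH1 intron 3 in Y36C. For HNRNPC intron 2, the WT donor call was lost under 7 left-out samples, and the acceptor call with the PSI in percent (limma adjusted p = 0.0538). For HNRNPH1 intron 3, the Y36C donor call was lost with a replicate block or a trended, robust variance model (limma adjusted p = 0.0769 and 0.0524). In the interaction 189 boundaries passed the filter, with 166 lower (Y36C change below the WT change) and 6 higher, beside 42.0% and 6.46% of all. The 6 were the ends of HNRNPA2B1 intron 11, HNRNPC intron 2 and HNRNPL intron 7. In DMSO none of the 98 boundaries tested by limma differed between genotypes, 12 had an unadjusted p under 0.05, and 0.0597% of all reference boundaries were called higher and 0.0339% lower.

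The files list further boundaries and junctions outside the reference transcripts. Over all 267 boundaries of the 10 genes that passed the filter in WT, 217 rose and 10 fell, beside 49.7% and 4.24% of all genes' boundaries, and in Y36C 55 of 179 rose and 15 fell, beside 14.2% and 0.641%. Under E7107, 221 of 270 were lower and 12 higher in Y36C than in WT, beside 45.3% and 8.28%, and for the interaction the counts were 193 and 10 of 246, beside 41.0% and 6.42%. In DMSO none of 158 was called by limma and 18 had an unadjusted p under 0.05, beside 0.0569% higher and 0.0359% lower. Junctions that skip no reference exon moved the opposite way, as they share each site with the unspliced reads. In WT 236 of 296 fell and 11 rose, beside 37.2% and 3.75%, and in Y36C 87 of 308 fell and 19 rose, beside 12.3% and 1.28%. Between genotypes under E7107, 233 of 298 were higher in Y36C and 21 lower, beside 33.4% and 9.11%, and for the interaction 221 of 294 were higher and 19 lower, beside 29.1% and 6.86%.

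**Figure D2:**
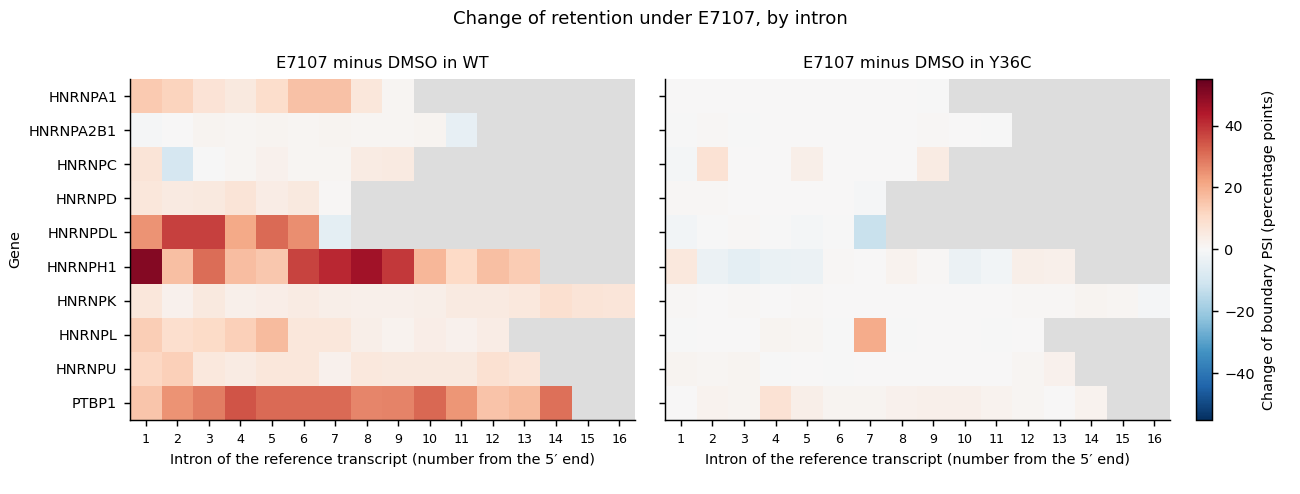
Change of mean boundary PSI in percentage points (E7107 minus DMSO, colour) for each reference intron of the 10 hnRNP genes, numbered 5′ to 3′, in WT and in Y36C. WT shows rises along nearly the whole of PTBP1, HNRNPH1 and HNRNPDL, whereas Y36C stays near 0 except for single introns such as HNRNPL intron 7 (20.5 points) and HNRNPDL intron 7 (-12.3 points).

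HNRNPL intron 7 was the intron with the largest rise in Y36C cells. It is 111 bases long and lies at chr19:39331017-39331127 on the minus strand (hg19), within the coding sequence, and its ends fall inside an exon of another annotated transcript that keeps it. Averaged over both ends, its boundary PSI was 16.7 to 19.0% in WT DMSO (median 17.2%) and 22.1 to 24.5% in WT E7107 (median 23.5%). In Y36C cells it was 16.4 to 18.9% in DMSO (median 17.4%) and 35.4 to 41.3% in E7107 (median 37.9%). Every Y36C sample in E7107 thus exceeded every WT sample in E7107, the reverse of the usual order. At the donor, the 5′ splice site, the change was 0.35 ± 0.10 log-odds units in WT (adjusted p = 0.0104) and 1.03 ± 0.07 in Y36C (adjusted p = 7.72e-06), and the interaction was 0.68 ± 0.13 (adjusted p = 0.000143). The WT call at the donor was lost with an offset of 0.1 percentage points in the log odds (adjusted p = 0.0595).

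Reading through this intron meets no in-frame stop codon. That held for 7 of the 100 coding introns of the 10 genes, while the other 93 contain a stop in the reading frame. The 7 were HNRNPL intron 7, HNRNPA2B1 intron 6 and PTBP1 introns 4, 5, 6, 7 and 12. PTBP1 introns 4 and 7, of 83 and 73 bases, do not hold a whole number of codons, so their retention shifts the frame downstream. Among the 21 coding introns of at most 120 bases, the 4 with the largest Y36C rise were HNRNPL intron 7, PTBP1 intron 4, HNRNPC intron 9 and PTBP1 intron 5, and they are shown first, to let their base composition be compared with the 4 whose change was smallest or negative. The sequences are from GRCh37 (hg19), 5′ to 3′ on the strand of the gene, and capitals mark the first and last 2 bases of the intron.
HNRNPL intron 7: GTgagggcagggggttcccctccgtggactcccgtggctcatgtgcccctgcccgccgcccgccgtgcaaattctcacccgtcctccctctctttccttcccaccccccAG
PTBP1 intron 4: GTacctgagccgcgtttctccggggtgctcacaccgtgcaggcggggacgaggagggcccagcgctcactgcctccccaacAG
HNRNPC intron 9: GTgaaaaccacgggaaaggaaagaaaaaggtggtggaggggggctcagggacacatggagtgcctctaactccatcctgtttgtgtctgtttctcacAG
PTBP1 intron 5: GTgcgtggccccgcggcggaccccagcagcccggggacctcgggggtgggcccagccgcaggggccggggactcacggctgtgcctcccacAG
HNRNPA1 intron 4: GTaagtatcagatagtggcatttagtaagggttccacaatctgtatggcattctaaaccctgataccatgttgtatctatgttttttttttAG
HNRNPDL intron 2: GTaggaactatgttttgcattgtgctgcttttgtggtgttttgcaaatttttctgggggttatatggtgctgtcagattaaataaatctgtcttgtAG
HNRNPL intron 11: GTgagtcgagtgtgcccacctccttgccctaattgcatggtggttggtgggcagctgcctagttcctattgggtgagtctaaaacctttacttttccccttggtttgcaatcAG
HNRNPH1 intron 10: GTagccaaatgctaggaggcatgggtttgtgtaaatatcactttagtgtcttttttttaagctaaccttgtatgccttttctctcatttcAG

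The first 4 lie at chr19:39331017-39331127, chr19:804209-804291, chr14:21679466-21679564 and chr19:804439-804531, and their GC content was 69.4, 69.9, 51.5 and 80.6%. The last 4 lie at chr12:54676085-54676177, chr4:83349333-83349430, chr19:39328120-39328233 and chr5:179043960-179044051, and their GC content was 34.4, 36.7, 50.9 and 36.96%. Since the 8 were picked by their Y36C change, this contrast is a description. The rise in WT did not follow the same order: HNRNPDL intron 2, near the bottom in Y36C with a change of -0.284 points, gained 37.6 points in WT, more than any other of the 21 except HNRNPH1 intron 7, which gained 41.3 points.

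Over all 111 introns, Spearman's rho between GC content and the change in PSI was 0.379 in WT and 0.325 in Y36C, and between length and the change it was -0.191 and -0.201. Over 93102 introns of all genes, the values for GC content were -0.0289 and 0.271, and for length -0.0826 and -0.232. Introns of 1 gene share their transcript and much of their base composition, so these are descriptions only. The hnRNP introns were shorter than the average intron (median 433 against 1371 bases) and poorer in GC (37.3 against 43.9%). Their median change was 6.25 points in WT and 0.178 points in Y36C, beside 4.84 and 0.463 points for all introns.

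**Figure D3:**
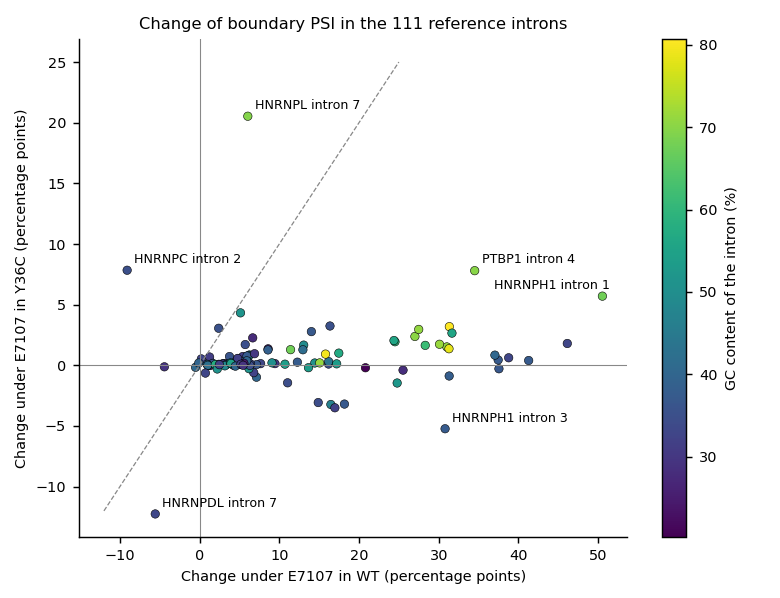
Change of boundary PSI in WT (x axis, percentage points) against that in Y36C (y axis, percentage points) for the 111 reference introns, 1 point per intron, coloured by GC content (%), with a dashed line at equal change. Most points lie along the x axis, and HNRNPL intron 7 lies above them at 6.05 points in WT and 20.5 in Y36C.

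PTBP1 intron 4, the intron of that gene with the largest Y36C rise, was at 1.21 to 2.96% in WT DMSO (median 1.89%), 32.5 to 43.2% in WT E7107 (median 36.5%), 1.13 to 2.56% in Y36C DMSO (median 1.83%) and 8.23 to 10.6% in Y36C E7107 (median 9.86%). Treated and control samples did not overlap in either genotype, and the interaction at the donor was -1.58 ± 0.21 (adjusted p = 1.37e-06). HNRNPC intron 9 differed from it in that no interaction was called. It was at 2.24 to 3.34% in WT DMSO (median 2.52%), 7.19 to 8.90% in WT E7107 (median 7.66%), 2.41 to 2.74% in Y36C DMSO (median 2.70%) and 6.13 to 7.55% in Y36C E7107 (median 7.05%). The treated groups overlapped each other and lay above both controls. Its interaction was 0.00 ± 0.14 at the donor and -0.15 ± 0.14 at the acceptor (adjusted p = 1 and 0.431), and intervals of that width leave room for a modest difference.

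HNRNPH1 carried several introns that were already retained in DMSO. Intron 10, at chr5:179043960-179044051, went from 27.9% ± 1.31 to 46.0% ± 2.78 with treatment in WT, and was at 26.0% ± 1.11 before and 22.8% ± 1.35 after it in Y36C. Intron 3, at chr5:179048037-179048242, was at 15.8 to 19.1% in WT DMSO (median 17.2%), 43.7 to 51.3% in WT E7107 (median 48.9%), 13.4 to 16.7% in Y36C DMSO (median 15.97%) and 8.72 to 11.7% in Y36C E7107 (median 10.3%). It thus rose in WT and fell in Y36C with separate groups, by 0.46 ± 0.07 log-odds units at the Y36C acceptor (adjusted p = 0.00104). Its first intron, at chr5:179050166-179050595, rose in both, from 4.56% ± 1.11 to 55.1% ± 3.66 in WT and from 6.94% ± 0.887 to 12.6% ± 1.41 in Y36C. Single introns of this gene thus moved in both directions in Y36C.

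In HNRNPDL introns 1 to 6 were well spliced in DMSO and strongly retained in WT E7107. Intron 2 went from 0.723% ± 0.443 to 38.3% ± 1.88 in WT, and was at 1.04% ± 0.121 in Y36C DMSO and 0.751% ± 0.197 in Y36C E7107. Intron 1, at chr4:83349600-83350400, rose from 2.83% ± 0.467 to 27.6% ± 2.36 in WT and fell from 2.93% ± 0.339 to 1.48% ± 0.311 in Y36C (donor, adjusted p = 0.0026). HNRNPD, its relative, had the same WT direction at a lower level in intron 4, at chr4:83278598-83279811, which rose from 0.414% ± 0.251 to 7.56% ± 1.02 in WT and was at 0.310% ± 0.0989 and 0.368% ± 0.135 in Y36C DMSO and E7107.

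**Figure D4:**
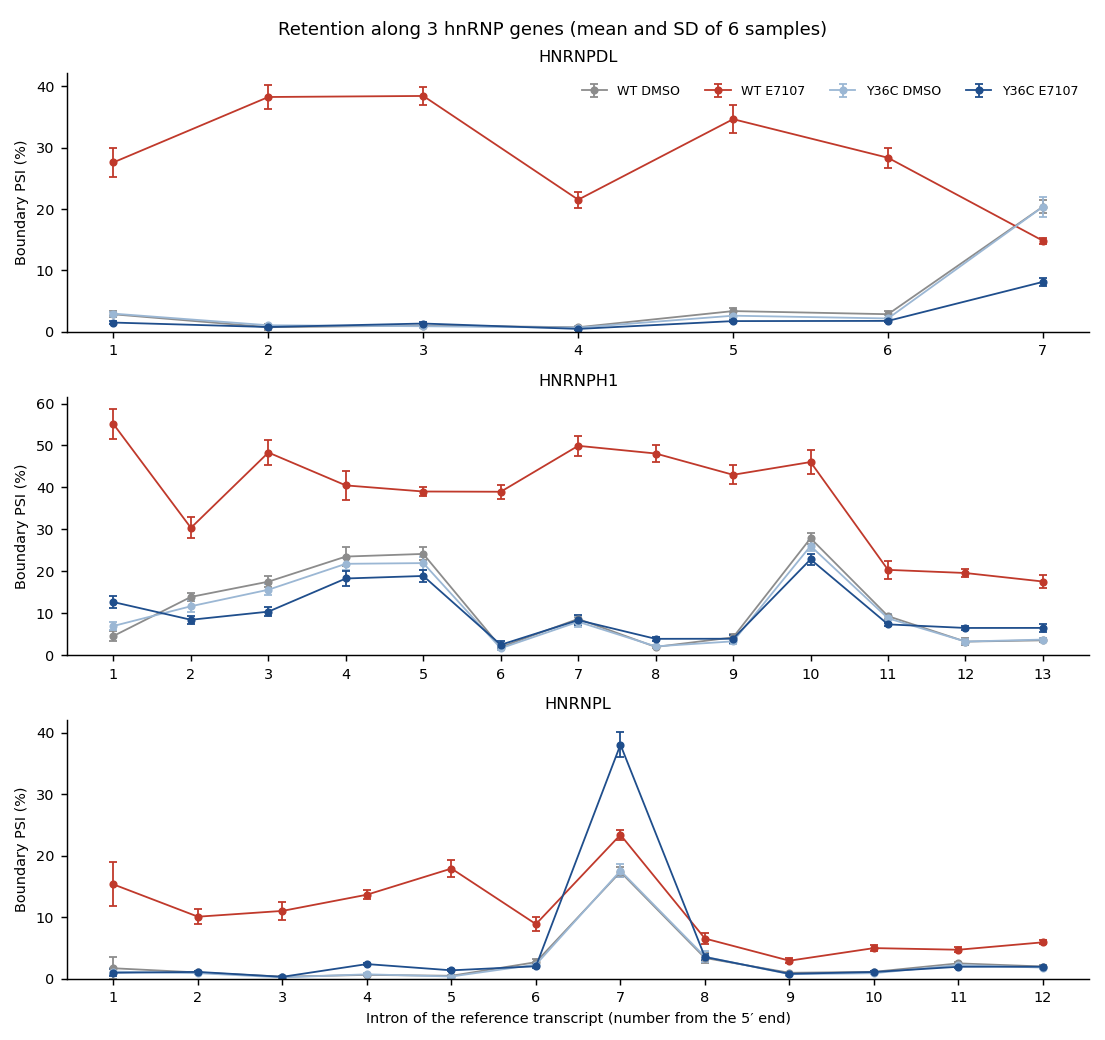
Boundary PSI (%) of each reference intron, mean of both ends, along HNRNPDL, HNRNPH1 and HNRNPL in the 4 groups, as mean and SD of 6 samples, with lines as a guide. WT E7107 lies above the other groups at most introns, with HNRNPDL intron 7 and HNRNPL intron 7 among the exceptions.

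HNRNPL intron 4 is the only AT-AC intron among the 111, of which 108 are GT-AG and 2 GC-AG (HNRNPU introns 10 and 11). AT-AC ends are typical of the minor, U12-dependent class, whose spliceosome also contains SF3b. Its first 30 and last 40 bases are shown because the class is defined by these ends, from chr19:39336260-39336289 and chr19:39334745-39334784 on the minus strand of GRCh37, with the terminal dinucleotides in capitals.
HNRNPL intron 4 first 30 bases: ATatcctttgctggaaaacaggtgttcctt
HNRNPL intron 4 last 40 bases: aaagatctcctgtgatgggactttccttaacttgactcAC

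The intron was at 0.392 to 0.914% in WT DMSO (median 0.536%), 12.5 to 14.2% in WT E7107 (median 13.98%), 0.389 to 0.989% in Y36C DMSO (median 0.652%) and 2.16 to 2.54% in Y36C E7107 (median 2.37%). Treated samples were above controls without overlap in both genotypes (donor, adjusted p = 1.91e-08 in WT and 0.000786 in Y36C). The neighbouring GT-AG intron 5, at chr19:39334555-39334647, went from 0.448% ± 0.142 to 17.9% ± 1.46 in WT and from 0.332% ± 0.175 to 1.34% ± 0.187 in Y36C, where it was under the filter and not tested.

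The 5 reference introns in the 3′ untranslated region (UTR) did not move in 1 direction. Their removal is known to mark a message for decay only where the exon junction it leaves lies far enough behind the stop codon. HNRNPDL intron 7, at chr4:83346037-83347189, was at 19.1 to 22.3% in WT DMSO (median 20.4%), 14.3 to 15.3% in WT E7107 (median 14.9%), 18.7 to 23.3% in Y36C DMSO (median 20.1%) and 7.26 to 9.21% in Y36C E7107 (median 8.07%). It was lower after treatment in both genotypes without overlap, and lower in Y36C than in WT. The donor changed by -0.33 ± 0.10 log-odds units in WT (adjusted p = 0.02) and -1.02 ± 0.08 in Y36C (adjusted p = 1.43e-05), with the WT call lost with an offset of 0.1 percentage points (adjusted p = 0.0801). HNRNPA2B1 intron 11, at chr7:26231959-26232114, fell in WT from 6.95% ± 0.623 to 2.53% ± 0.261 (donor, adjusted p = 3.07e-05) and was at 5.83% ± 0.433 and 5.70% ± 0.426 in Y36C (donor, adjusted p = 0.694). HNRNPA1 intron 9 and HNRNPD intron 7 did not pass the test in either genotype, with HNRNPA1 intron 9 at 4.59% ± 0.459 and 5.76% ± 0.56 in WT and 4.63% ± 0.178 and 4.63% ± 0.236 in Y36C. HNRNPH1 intron 13, at chr5:179041961-179042546, rose from 3.52% ± 0.487 to 17.5% ± 1.58 in WT (donor, adjusted p = 9.36e-08) and from 3.70% ± 0.429 to 6.48% ± 0.947 in Y36C (donor, adjusted p = 0.0041).

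HNRNPA1 and HNRNPU also have annotated introns at the far end of the gene that are outside the reference transcript. The one in the last exon of HNRNPA1, at chr12:54680517-54680736, was spliced in 60.6 to 73.0% of reads at its donor in WT DMSO (median 70.5%) and in 2.58 to 5.45% in WT E7107 (median 3.81%). In Y36C it was spliced in 74.1 to 81.3% in DMSO (median 79.3%) and 67.6 to 73.9% in E7107 (median 73.2%). The treated samples lay below their controls in both genotypes, by a wide gap in WT and a narrow one in Y36C. The Y36C change of -0.36 ± 0.09 (adjusted p = 0.0239) was lost with an offset of 0.1 percentage points, with all samples in 1 model and with a trended, robust variance model (adjusted p = 0.0649, 0.0656 and 0.0564), and the interaction was 3.44 ± 0.18 (adjusted p = 1.21e-12). The HNRNPU intron, at chr1:245008647-245009905, was spliced in 86.5 to 100% in WT DMSO (median 91.0%), 6.67 to 12.5% in WT E7107 (median 8.53%), 83.9 to 100% in Y36C DMSO (median 92.1%) and 85.1 to 95.0% in Y36C E7107 (median 90.5%). Again the WT E7107 samples alone stood apart (interaction 4.45 ± 0.63, adjusted p = 4.01e-06). This HNRNPU intron lies beyond the last reference exon, which ends at chr1:245013599, and the read depth there is unknown. HNRNPA1 overlaps an annotated long non-coding RNA on its own strand and is known for many processed pseudogenes, so reads there may be shared. The same holds for HNRNPL, where an annotated protein-coding gene on its strand covers introns 8 to 12. A long non-coding RNA is also annotated on that strand within HNRNPL intron 4. How far such sharing touches the values of these genes was not tested.

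Exon choice was examined in the rows that join annotated splice sites across at least 1 exon. In WT 36 of 71 such rows of the hnRNP genes rose and 8 fell, beside 17.7% and 8.33% of all exon-skipping rows. In Y36C 25 of 50 rose and 2 fell, beside 23.0% and 0.879%. As for the boundaries, a junction near 0 in DMSO could pass the filter only through its treated samples, so these counts are a description and their shares are not compared between the genotypes. Under E7107, 22 of 73 rows were higher in Y36C than in WT and 30 lower, beside 25.4% and 10.9%. The difference between the E7107 effects was called for 36 of 60 rows, 18 in each direction, beside 22.3% (larger in Y36C) and 9.63% (smaller) of all rows. In DMSO no row was called of 45 tested by limma, and 11 had an unadjusted p under 0.05. The background there was 0.118% higher and 0.031% lower.

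The exons whose skipping the results turn on are shown with 40 bases of the upstream intron, which hold the pyrimidine tract and the AG that SF3b-dependent recognition leads to, and 8 bases downstream. The letters are from GRCh37, 5′ to 3′ on the strand of the gene, with the exon in capitals.
HNRNPD exon 2: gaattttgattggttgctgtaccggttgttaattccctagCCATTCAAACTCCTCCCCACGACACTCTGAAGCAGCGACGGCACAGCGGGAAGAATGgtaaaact
PTBP1 exon 11: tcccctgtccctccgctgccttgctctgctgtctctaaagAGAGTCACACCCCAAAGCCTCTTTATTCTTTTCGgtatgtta
HNRNPA2B1 exon 2: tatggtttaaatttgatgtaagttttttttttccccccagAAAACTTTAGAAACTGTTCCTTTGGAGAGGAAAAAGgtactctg
HNRNPH1 exon 13: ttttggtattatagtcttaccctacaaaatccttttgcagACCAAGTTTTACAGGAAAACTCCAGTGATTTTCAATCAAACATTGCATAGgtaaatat
HNRNPU exon 13: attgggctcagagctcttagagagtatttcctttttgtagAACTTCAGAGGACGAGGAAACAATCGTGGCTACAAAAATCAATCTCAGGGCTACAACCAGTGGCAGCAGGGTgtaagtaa
HNRNPDL exon 6: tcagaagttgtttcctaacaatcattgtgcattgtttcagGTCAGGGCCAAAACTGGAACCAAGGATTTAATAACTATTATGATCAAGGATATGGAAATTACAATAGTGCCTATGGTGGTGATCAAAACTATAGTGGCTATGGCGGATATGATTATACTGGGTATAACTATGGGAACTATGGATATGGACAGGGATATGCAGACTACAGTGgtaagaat
PTBP1 exon 9: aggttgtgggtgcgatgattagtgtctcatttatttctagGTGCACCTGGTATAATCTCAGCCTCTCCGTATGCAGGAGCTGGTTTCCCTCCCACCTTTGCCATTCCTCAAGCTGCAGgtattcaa
HNRNPL poison exon: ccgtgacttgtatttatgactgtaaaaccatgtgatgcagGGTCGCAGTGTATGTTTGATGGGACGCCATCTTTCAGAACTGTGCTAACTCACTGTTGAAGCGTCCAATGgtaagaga

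The exons are at chr4:83292681-83292737 (HNRNPD exon 2, 57 bases), chr19:807869-807902 (PTBP1 exon 11, 34 bases), chr7:26237451-26237486 (HNRNPA2B1 exon 2, 36 bases), chr5:179042547-179042596 (HNRNPH1 exon 13, 50 bases) and chr1:245018275-245018346 (HNRNPU exon 13, 72 bases). HNRNPDL exon 6 is at chr4:83347616-83347786 (171 bases), PTBP1 exon 9 at chr19:805492-805569 (78 bases) and the HNRNPL poison exon at chr19:39332253-39332322 (70 bases). Those of PTBP1 exon 11, HNRNPH1 exon 13 and the HNRNPL poison exon are not multiples of 3, so their use or loss shifts the reading frame where coding sequence follows.

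A first set of exons was skipped more after E7107 in Y36C than in WT. HNRNPD exon 2 encodes 19 residues that some forms of AUF1 contain and others lack. Its skipping at the acceptor of exon 3 was 3.37 to 5.70% in WT DMSO (median 4.64%), 3.96 to 6.39% in WT E7107 (median 5.12%), 4.89 to 6.60% in Y36C DMSO (median 5.53%) and 16.2 to 18.1% in Y36C E7107 (median 16.6%). The WT groups overlapped and only the Y36C E7107 samples stood apart. The change was 0.12 ± 0.12 log-odds units in WT (adjusted p = 0.476) and 1.13 ± 0.07 in Y36C (adjusted p = 2.21e-06), with an interaction of 1.02 ± 0.15 (adjusted p = 6.22e-06).

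PTBP1 exon 11 followed that pattern at a lower level. Skipping of this exon is the known route by which PTBP1 protein limits its own message. It was 0.936 to 1.80% in WT DMSO (median 1.56%), 0.723 to 1.75% in WT E7107 (median 1.15%), 1.38 to 2.16% in Y36C DMSO (median 1.93%) and 2.84 to 4.91% in Y36C E7107 (median 4.31%). Only the last group stood clear of the others (interaction 0.70 ± 0.17, adjusted p = 0.00165). Skipping of HNRNPC exons 2 and 3 together, which lie in the 5′ part of the message, went from 25.6 to 27.8% in WT DMSO (median 26.8%) to 30.8 to 32.2% in WT E7107 (median 31.9%), and from 31.6 to 34.4% in Y36C DMSO (median 32.2%) to 51.2 to 53.9% in Y36C E7107 (median 52.1%). Treated and control samples separated in both genotypes, and the Y36C rise was the larger (interaction 0.56 ± 0.11, adjusted p = 0.000273). The WT call (adjusted p = 0.0369) was lost under 8 alternative settings or left-out samples.

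HNRNPA2B1 exon 2 separates the longer B1 form from A2, which lacks its 12 residues. Its skipping was 79.9 to 81.4% in WT DMSO (median 80.2%), 79.1 to 80.3% in WT E7107 (median 79.7%), 82.7 to 84.8% in Y36C DMSO (median 84.2%) and 86.7 to 87.6% in Y36C E7107 (median 87.1%). The Y36C samples were above the WT samples in both treatments. The Y36C change was called (0.24 ± 0.06, adjusted p = 0.0171) but was lost with an offset of 0.1 percentage points or a trended, robust variance model (adjusted p = 0.104 and 0.124), and the interaction lay at the threshold (adjusted p = 0.0499, lost under 25 alternative settings or left-out samples).

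A second set rose in both genotypes with no interaction called on the log-odds scale. Skipping of HNRNPH1 exon 13, the exon that ends with the stop codon, was 11.1 to 13.1% in WT DMSO (median 11.997%), 30.1 to 33.5% in WT E7107 (median 31.3%), 10.7 to 13.1% in Y36C DMSO (median 12.5%) and 27.3 to 30.7% in Y36C E7107 (median 28.8%). Each treated group was above its control, and the treated groups overlapped. The interaction was -0.13 ± 0.12 on log odds (adjusted p = 0.437). With the PSI in percent as the response it was called, at -2.71 points (adjusted p = 0.043), as was the lower value of Y36C than of WT under E7107 (-2.62 points, adjusted p = 0.0376). HNRNPU exon 13 was skipped in 0.170% ± 0.125 and 3.90% ± 0.599 of reads in WT DMSO and E7107 and in 0.112% ± 0.119 and 3.83% ± 1.06 in Y36C (interaction 0.02 ± 0.16, adjusted p = 0.929). HNRNPA1 exon 2, of 117 bases, lay between these sets and the next. It was skipped in 0.0919% ± 0.031 and 3.61% ± 0.218 in WT and in 0.0728% ± 0.0315 and 2.10% ± 0.322 in Y36C, with a smaller rise in Y36C (interaction -0.40 ± 0.12, adjusted p = 0.00911).

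The third set changed mainly in WT. HNRNPDL exon 6, whose 57 residues are rich in tyrosine and glycine, was skipped in 1.03 to 2.05% in WT DMSO (mean 1.49%), 18.2 to 21.4% in WT E7107 (mean 20.1%), 1.23 to 2.31% in Y36C DMSO (mean 1.66%) and 2.87 to 3.79% in Y36C E7107 (mean 3.22%). Both treated groups were above their controls, and the Y36C rise was the smaller by far (interaction -1.87 ± 0.15, adjusted p = 5.24e-10). PTBP1 exon 9, which lengthens the linker between RNA-binding domains by 26 residues, moved the other way. Its skipping was 34.5 to 39.03% in WT DMSO (median 36.9%), 23.9 to 26.0% in WT E7107 (median 24.96%), 41.6 to 44.5% in Y36C DMSO (median 43.8%) and 38.5 to 43.9% in Y36C E7107 (median 40.7%). Skipping fell in WT by 0.55 ± 0.09 log-odds units (adjusted p = 0.000263) and the Y36C groups overlapped (adjusted p = 0.314). At each acceptor the junctions share the PSI with unspliced reads, and the boundary PSI at this acceptor was 1.98% in WT DMSO and 25.6% in WT E7107.

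**Figure D5:**
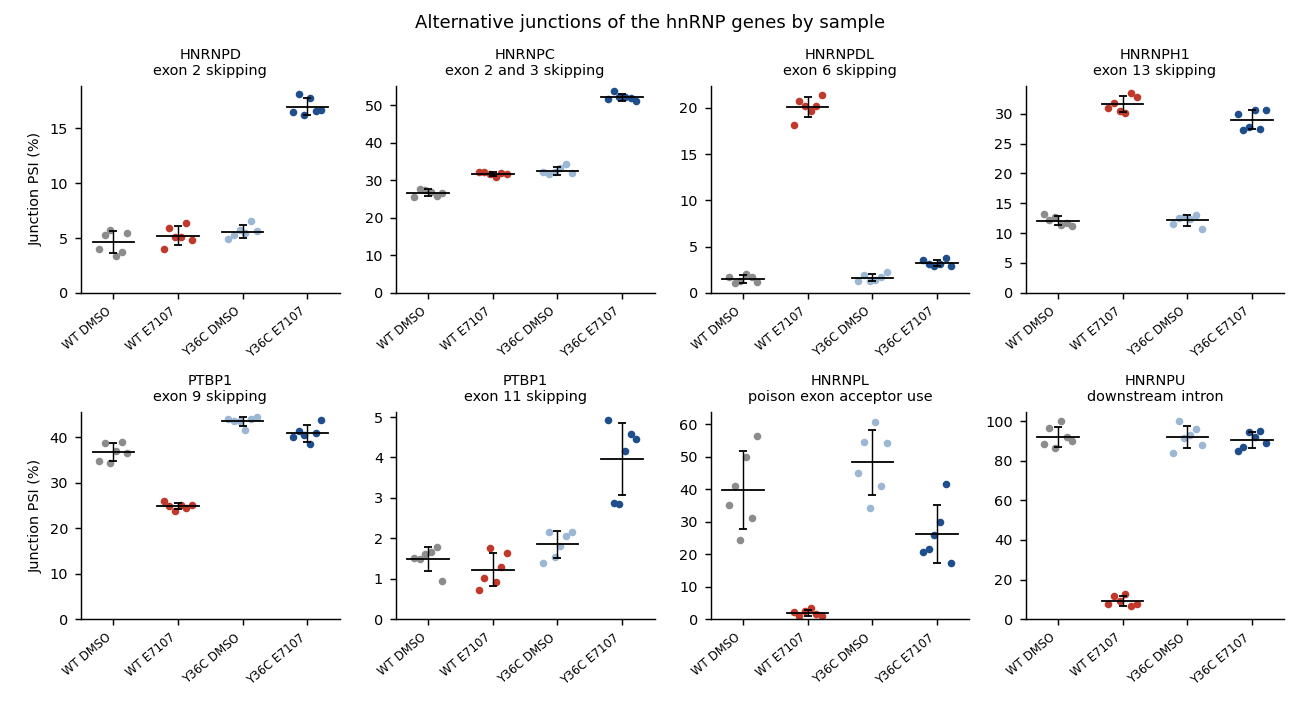
PSI (%) of selected alternative events of the hnRNP genes, 1 point per sample in the 4 groups, with the mean (bar) and SD of each group of 6. HNRNPD exon 2 skipping is high in Y36C E7107 only (16.2 to 18.1%), HNRNPH1 exon 13 skipping is high in both treated groups and HNRNPDL exon 6 skipping is high in WT E7107 (18.2 to 21.4%).

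The HNRNPL poison exon lies inside the intron between exons 6 and 7 and is known to be included when HNRNPL protein is plentiful. At its acceptor, the spliced share was 24.2 to 56.4% in WT DMSO (median 38.1%), 0.971 to 3.31% in WT E7107 (median 1.90%), 34.3 to 60.7% in Y36C DMSO (median 49.4%) and 17.2 to 41.7% in Y36C E7107 (median 23.7%). The WT E7107 samples lay below all others, and in Y36C the treated and control samples overlapped. The change was -3.12 ± 0.24 in WT (adjusted p = 4.57e-07) and -0.97 ± 0.23 in Y36C (adjusted p = 0.0148). The Y36C call was lost with a replicate block (limma adjusted p = 0.0663). The interaction (2.145) was lost with the PSI in percent (adjusted p = 0.0857). Unspliced reads count in this share, and the boundary PSI at the acceptor went from 59.0 to 98.1% in WT and from 49.0 to 69.7% in Y36C. The fall is therefore no measure of exon choice among the spliced reads, which was not tested. Seen from the upstream donor, its inclusion took 1.18% ± 0.436 of reads without and 0.136% ± 0.0709 with E7107 in WT, and 1.22% ± 0.234 and 0.420% ± 0.176 in Y36C. The acceptor share covers only the reads at that site, and the donor share was under the filter and not tested.

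Other events define known protein forms. Inclusion of the 52-residue A1B exon of HNRNPA1 was 13.5% ± 0.541 in DMSO and 12.3% ± 0.286 in E7107 for WT cells, and 14.3% ± 0.304 and 14.9% ± 0.258 for Y36C cells, and no comparison within a genotype passed (adjusted p = 0.4 and 0.63). The WT change passed with no filter on low values (limma adjusted p = 0.00408). Under E7107 the genotypes missed the threshold (adjusted p = 0.0603) and passed it with some other settings, such as the PSI in percent (adjusted p = 0.000495). Use of the HNRNPC donor that adds the 13 residues of the C2 form was 43.5% ± 0.869 and 43.9% ± 0.863 in WT DMSO and E7107. In Y36C DMSO and E7107 it was 48.3% ± 0.95 and 53.6% ± 0.752, with a call (adjusted p = 0.0267) that was lost with an offset of 0.1 percentage points (adjusted p = 0.166). Use of the upstream donor of the first HNRNPU exon, which removes 19 residues, was 73.2% ± 1.11, 65.5% ± 2.21, 72.2% ± 0.899 and 71.0% ± 1.82 in the same order. The WT fall in this share (adjusted p = 0.00795) was lost with that offset too (adjusted p = 0.0552). Unspliced reads count in the share, and the boundary PSI at the same acceptor was 4.25% in WT DMSO and 16.5% in WT E7107. The fall is therefore no measure of donor choice among the spliced reads, which was not tested. The alternative last acceptor of HNRNPK fell in Y36C from 40.8% ± 2.40 to 29.6% ± 2.18 (adjusted p = 0.00135) and was at 45.6% ± 1.67 and 42.6% ± 1.44 in WT (adjusted p = 0.319). The 49-residue extra exon of HNRNPD fell in Y36C from 47.1% ± 1.74 to 39.5% ± 1.37 (adjusted p = 0.00688) and was at 43.0% ± 0.577 and 43.7% ± 1.40 in WT (adjusted p = 0.832). This Y36C call was lost with an offset of 0.1 percentage points or a replicate block (limma adjusted p = 0.0544 and 0.0711). The interaction for this exon was lost with the same settings (adjusted p = 0.162 and 0.0525).

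In DMSO, where the question is whether Y36C alone alters these genes, 1 of 309 other spliced rows was called, beside 0.0365% higher and 0.0472% lower of all, and 41 had an unadjusted p under 0.05. It was a junction near the end of HNRNPA1, at chr12:54679896-54680445, at 3.73% in WT and 8.08% in Y36C (adjusted p = 0.0451). Some exon events, those given next among them, had DMSO groups that did not overlap, and so did HNRNPC C2 donor use. The share of all rows that separate in this way was not counted, so this is a description of single events. Skipping of HNRNPC exons 2 and 3 was 25.6 to 27.8% in WT and 31.6 to 34.4% in Y36C, HNRNPA2B1 exon 2 skipping 79.9 to 81.4% and 82.7 to 84.8%, and PTBP1 exon 9 skipping 34.5 to 39.03% and 41.6 to 44.5%. By limma on log odds their adjusted p was 0.146, 0.224 and 0.177. With the PSI in percent as the response, it was 0.00376, 0.00865 and 0.016. On log odds it was 0.00362, 0.00915 and 0.0293 with no filter on low values, and 0.0189, 0.0456 and 0.0445 with an offset of 5 percentage points, so these calls depend on the scale, filter and offset of the test.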

How the data were processed

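PolyA-selected RNA was sequenced by the authors from 24 HCT116 samples (6 per group), and reads were aligned to hg19 with STAR (version not given in the sources used here). The deposited values are percent spliced in (PSI), in percent, per junction or exon-intron boundary at each splice site. At every site they sum to 100, or to 0 where no read fell, which was treated as missing. No counts were used, so depth is unknown. Groups followed the sample titles. Of 1830076 rows per file, 6433 without strand or mitochondrial were left out.

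Rows with reads in all samples compared and a mean PSI of at least 1% were fitted with limma 3.58.1 (R 4.3.3) on natural-log odds with an offset of 1 percentage point, by group pair and as an interaction over all 24 samples, with Benjamini-Hochberg adjustment over all rows (5 comparisons, threshold 0.05). "Log-odds units" are natural. Gene retention was the mean PSI over at least 3 reference-transcript boundaries read in all samples, fitted over 9747 genes. Reference transcripts (GENCODE, lifted to GRCh37) were protein coding, preferring APPRIS principal, then CCDS, then the longest coding sequence. All 10 hnRNP genes were named, and in each the introns with the extreme changes per genotype or the highest DMSO PSI, the exon-skipping rows with the largest rise, known alternative events and 3′ UTR introns. Members and lists were chosen with earlier results of these data known. Another scale, offsets, filters, variance models, sample sets and left-out samples were tried. Scripts were tested on simulated data.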

Additional observations from a re-analysis of the deposited data

Results flagged for a closer look

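Among 132 groups of 6 samples checked, 9 held a sample far from the other 5, where chance gives about 1 in 20 groups. HNRNPH1 retention was 9.579% in replicate 4 of Y36C DMSO (others 10.31 to 10.66%), and HNRNPK retention was 1.049% in replicate 1 of WT DMSO (others 0.7649 to 0.8463%). In WT DMSO, the intron in the last HNRNPA1 exon was spliced in 60.64% in replicate 2 (others 68.67 to 73.03%), HNRNPK exon 8 was skipped in 11.92% in replicate 5 (others 9.195 to 9.619%) and PTBP1 exon 11 in 0.9362% in replicate 6 (others 1.491 to 1.796%). Skipping of HNRNPC exons 2 and 3 was 30.8% in replicate 4 of WT E7107 (others 31.75 to 32.24%). In replicate 2 of Y36C E7107, the HNRNPD 3′ cassette exon was included in 3.376% (others 2.339 to 2.683%). In the same sample, the HNRNPL junction from a donor upstream of reference exon 1 to exon 2 was at 28.75% (others 31.06 to 32.3%). PTBP1 exon 9 was skipped in 41.63% in replicate 4 of Y36C DMSO (others 43.68 to 44.51%).

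The E7107 effect differed between the genotypes in 31 listed values, tested as the interaction in limma (Y36C change minus WT change, in log-odds units). For gene retention it was -1.837 in HNRNPA1, -0.1191 in HNRNPA2B1, -1.104 in HNRNPD, -2.518 in HNRNPDL, -1.569 in HNRNPH1, -1.11 in HNRNPK, -0.736 in HNRNPL, -1.309 in HNRNPU and -2.143 in PTBP1.

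Exon and junction events with a higher value in Y36C relative to WT were the intron in the last HNRNPA1 exon (3.444), HNRNPA2B1 exon 2 skipping (0.2784), HNRNPC exon 2 and 3 skipping (0.5562), HNRNPD exon 2 skipping (1.016) and the HNRNPDL 3′ cassette exon (0.8758). Another was the HNRNPL junction from a donor upstream of reference exon 1 to exon 2 (0.6303). The boundary PSI at its acceptor was 1.75% in WT DMSO and 28.3% in WT E7107. Further events were the HNRNPL poison exon acceptor (2.145), the downstream HNRNPU intron (4.45), PTBP1 exon 11 skipping (0.6965) and PTBP1 exon 9 skipping (0.4384). Those with a lower value were HNRNPA1 exon 2 skipping (-0.3967), the extra HNRNPD exon (-0.3314), HNRNPDL exon 6 skipping (-1.866), HNRNPH1 exon 5 skipping (-0.4556), the last alternative HNRNPK acceptor (-0.3632) and HNRNPK exon 6 skipping (-1.191). Boundaries that rose more, or fell less, in Y36C were both ends of HNRNPA2B1 intron 11 (donor 0.748, acceptor 0.9119), HNRNPC intron 2 (1.373 and 0.695) and HNRNPL intron 7 (0.6837 and 0.6473).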

How the results depend on the processing

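Counts of called hnRNP boundaries or junctions moved by over 1.5 times only where the call also needed a change of at least 10 percentage points, or in the DMSO comparison. With the 10-point rule, 118 of 227 boundary and 127 of 291 spliced calls were left in WT, 9 of 70 and 23 of 133 in Y36C, 117 of 233 and 134 of 306 between genotypes under E7107, and 114 of 203 and 129 of 276 for the interaction. In DMSO the spliced count of 1 became 0 with the 10-point rule, an offset of 0.1, a replicate block or a trended, robust variance model, 19 with the PSI in percent, 11 with an offset of 5, 17 with no filter and 14 with PSI above 0 in all samples of a group, a filter that gave 1 boundary call. The cause was not tested.

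Leaving out 1 sample gave 222 to 230 boundary and 278 to 289 spliced calls in WT, 56 to 62 and 118 to 125 in Y36C, 0 and 0 to 2 in DMSO, 227 to 235 and 299 to 306 between genotypes under E7107, and 198 to 205 and 264 to 277 for the interaction. Gene retention gave 10, 6 to 7, 0, 9 and 8 to 9 calls in the same order. HNRNPC retention reversed under E7107 between genotypes with the median boundary (-0.787), acceptors only (-0.639) or boundaries in other exons left out (-0.8318, chosen after seeing the data), in the interaction under the same 3 (-0.794, -0.6956 and -0.8382), and in WT with donors only (-0.06077). Of 3495 single values under other settings, 3350 kept their side of the threshold, as did 6455 of 6586 with 1 sample left out. These also kept their direction where they were called, and the direction of values called in neither fit was not compared. Read depth is unknown, so the counting error of each PSI is too.

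Same-numbered samples did not deviate together (correlations -0.00618 to 0.00727 over 464689 rows), and in no pair of groups did every sample correlate best with its own number, so the numbers do not pair the samples. With the replicate number as a block, boundary and spliced calls were 222 and 267 in WT, 50 and 92 in Y36C, and 203 and 268 for the interaction.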

Other observations

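Other genes of the family also differed widely in their response. In WT cells E7107 raised the retention of RBMX by 24.2 percentage points, of HNRNPF by 29.7, of PTBP2 by 29.1, of TARDBP by 17.2 and of HNRNPAB by 11.4, but of HNRNPA3 by 2.49, of PTBP3 by 1.69 and of PCBP2 by 0.634. In Y36C cells the values rose by 4.80 points in HNRNPAB, 1.52 in HNRNPF and 1.34 in HNRNPLL, all called by limma, and the changes of RBMX (0.313) and SYNCRIP (0.0929) were not called. RALY, a close relative of HNRNPC, rose by 0.848 points in WT and 0.968 points in Y36C, and both were called. These genes were taken from a list of relatives, of which 17 had enough boundaries to be tested.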
